A study of Mus musculus with 12 samples.

Results

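The quantity described here is the kainate by genotype interaction in mouse hippocampus: the log2 response to kainate in mice lacking CREB and CREM, minus the log2 response in their controls. A negative value means that the kainate response was smaller in the mutants, and a positive value that it was larger. It was formed for 12422 of the 12488 probe sets of an Affymetrix MG-U74A array, leaving out 66 control probe sets, and it used 12 of the 12 arrays in the series. There were 4 groups of 3 arrays each: control mice given saline, control mice given 20 mg/kg kainate by intraperitoneal injection, mutant mice given saline, and mutant mice given the same dose of kainate. Hippocampi were taken 1 hour after injection, and RNA from 3 animals was pooled for each array. All groups were littermates aged 5 to 6 weeks, of both sexes, housed singly and handled for 5 days. The labels call the mice control or mutant, and how the genes were disrupted, in which cells, and the alleles that the controls carry are not given in the sources used here. Because each array is a pool, the spread between arrays is a spread between pools of animals.

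CREB is a transcription factor that binds the cyclic AMP response element, the palindrome TGACGTCA and its core TGACG, and is phosphorylated when neurons are excited. CREM is a close relative that binds the same element and also gives rise, from a promoter of its own, to a short activity-induced repressor. Kainate is a glutamate receptor agonist that causes seizures and drives a rapid wave of immediate early genes in the hippocampus, among them Fos, the Egr and Nr4a transcription factors, and enzymes and growth regulators. The interaction asks which of these responses differ in size when CREB and CREM are missing.

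One array stood apart. The third control kainate array had an interquartile range of 3.743 log2 units, against 4.396 to 4.612 in the other 11 arrays. Relative to the mean of the other control kainate arrays its median value differed by 0.30, 0.46, -0.20 and -0.24 log2 units in 4 equal classes of probe sets by mean level, from the dimmest to the brightest. Every interaction contains this array, so each value below was also computed without it, though not every one is printed both ways. With all arrays the median interaction was -0.09, -0.15, 0.06 and 0.09 from the dimmest to the brightest class. Without that array the same medians were 0.01, 0.01, 0.00 and 0.01. The pools also differed in sex-linked transcripts. Xist, transcribed from the inactive X chromosome of females, read 3.65, 5.98 and 3.23 in control saline arrays, 3.64, 6.49 and 3.92 in control kainate arrays, 3.96, 7.59 and 5.01 in mutant saline arrays and 3.68, 7.48 and 6.56 in mutant kainate arrays, in the order of their replicate numbers. Replicate 2 was the highest in every group. Its interaction was -0.01 (SE 1.76), and that of the Y-linked Eif2s3y was 0.51 (SE 0.70).

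With all 12 arrays, no interaction passed an adjusted p of 0.05 in limma (0 of 12422 probe sets, 0.0%), and 107 had an unadjusted p under 0.05 (0.861%), of which 72 were positive and 35 negative. Without the third control kainate array 5 probe sets passed (0.0403%), all with a smaller response in the mutants, and 110 had an unadjusted p under 0.05 (0.886%). The 5 that passed were 2 of the 3 probe sets of Atf3, 1 of Gadd45b, 1 of Gpr19 and 1 with no gene name in the annotation used. Both shares with an unadjusted p under 0.05 were below the 0.05 that evenly spread p-values would give. The cause of this shortfall was not tested, and the unadjusted p serves below only to choose genes to describe. The precision was limited: the median standard error of an interaction was 0.188 log2 units with all arrays and 0.126 without that array. The median 95% interval reached 0.417 to either side with all arrays and 0.286 without that array.

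The genes that kainate raised were taken from its effect averaged over both genotypes. In this balanced design its estimate is uncorrelated with that of the interaction if all groups have equal variance, but it shares the residual variance. The variances were not equal for every gene. The SD of Nfkbiz, for example, was 1.47 in control kainate and 0.35 in mutant kainate arrays. Without the third control kainate array the design is not balanced. Of all probe sets 117 passed an adjusted p of 0.05 in limma (0.942%), 66 higher after kainate (0.531%) and 51 lower (0.411%). That count moved with single arrays. Leaving out 1 array at a time, it was 57 and 52 without replicates 2 and 3 of control saline, 284 and 72 without replicates 1 and 2 of control kainate, 53 and 52 without replicates 2 and 3 of mutant saline, and 62 and 71 without replicates 2 and 3 of mutant kainate. It also moved with scaling, to 88 higher and 52 lower after quantile normalization, 51 and 11 after median centring, and 72 and 17 after median centring with interquartile scaling. Kainate effects within a genotype passed for 41 probe sets in controls (0.330%), 35 of them higher (0.282%), and for 37 in mutants (0.298%), 33 of them higher (0.266%). The control count was 27 without the second control saline array. It split as 28 higher and 0 lower after median centring, and as 35 and 1 after median centring with interquartile scaling.

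For the 66 probe sets raised on average, the interaction was positive for 33 and negative for 33, with a median of 0.01. Choosing them by the average favours responses of the same direction in both genotypes, which 65 of them had, and tends to leave out genes whose responses had opposite signs, such as Siah2, with 0.86 in controls, -0.33 in mutants and an adjusted p of 0.709 in limma for the average. Without the third control kainate array 27 were positive and 39 negative, with a median of -0.08. The mean over the raised probe sets was 6.99 in all 3 control saline arrays and 6.99, 6.94 and 6.97 in mutant saline arrays. After kainate it was 8.89, 8.89 and 8.48 in control arrays and 8.68, 8.77 and 8.63 in mutant arrays, so the genotypes overlapped only through the third control kainate array. An unadjusted interaction p under 0.05 was found for 9 raised probe sets with a positive and 10 with a negative value (28.8%). The share of 0.861% over all probe sets is no reference for these, because they were chosen by a test with the same residual variance. Among 34 probe sets raised by at least 1 log2 unit, 10 had an interaction of at least 1 in absolute size, against 46 of all 12422. Some genes, such as Atf3 and Gadd45b, are counted by more than 1 probe set. The 34 were chosen for a large response, and nothing is read from this count. The 51 lowered probe sets had a median interaction of 0.05, 2 of them had an unadjusted p under 0.05 (3.92%), and 98.0% lay within 0.5 log2 units of 0, near the 96.2% of all probe sets.

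**Figure D1:**
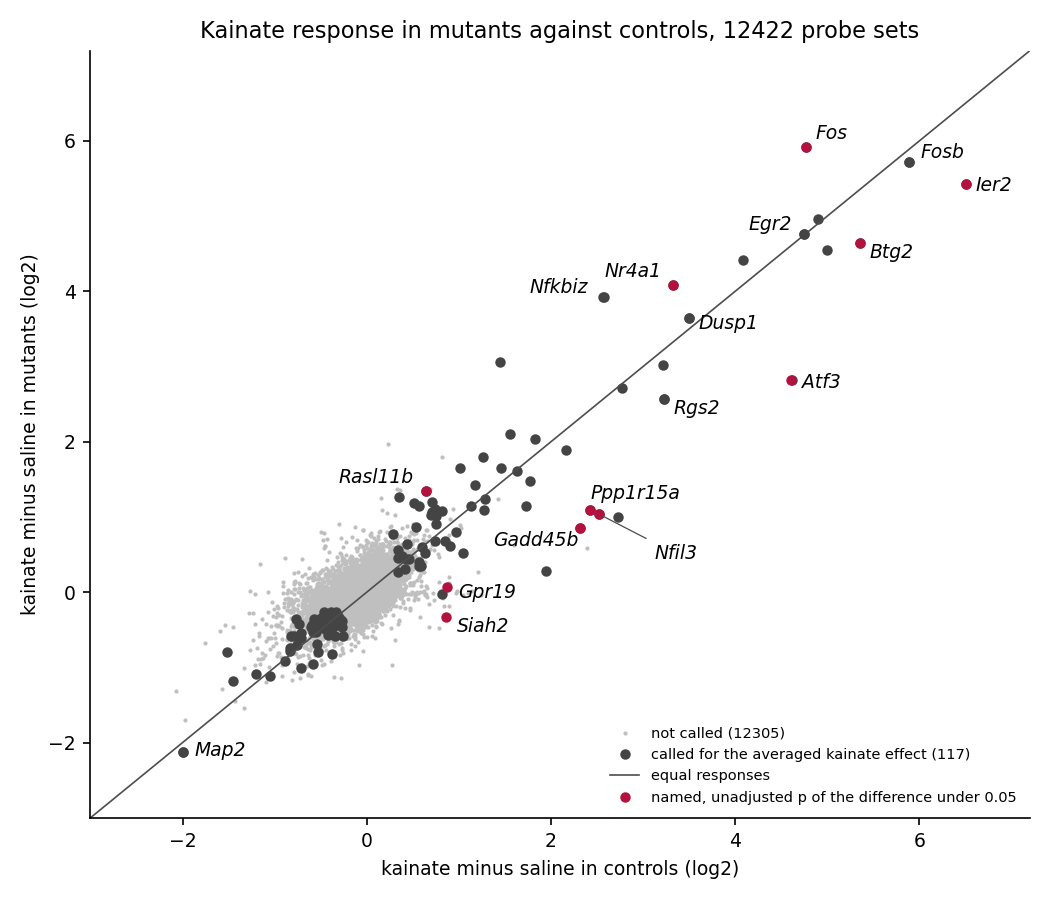
Each point is 1 probe set, with the log2 kainate response in controls on the horizontal axis and in mutants on the vertical axis, each from the means of 3 arrays. Points on the diagonal have equal responses, red points are labelled genes with an unadjusted interaction p under 0.05, and Atf3, Gadd45b, Nfil3 and Ppp1r15a lie below it while Fos and Nr4a1 lie above it.

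Creb1 and Crem, the genes lost in the mutants, were dim or near the median level on this array. The Crem probe sets lay at the 50.5 and 22.4 percentile of all mean levels. The 3 Creb1 probe sets lay between the 26.0 and 45.0 percentile of all mean levels, and none of their genotype differences passed. The brightest, 102673_at, had means of 3.89 in control saline, 4.03 in control kainate, 3.87 in mutant saline and 3.84 in mutant kainate arrays, and its interaction was -0.17 (SE 0.17) with all arrays and -0.01 (SE 0.09) without the third control kainate array. Whether these probes lie in a deleted stretch is not known here, so they do not check the labels. The brighter Crem probe set, 160526_s_at, read 4.45, 4.32 and 4.26 in control saline arrays and 4.51, 4.80 and 4.80 after kainate. It read 4.33, 4.21 and 4.26 in mutant saline arrays and 4.16, 4.12 and 4.31 in mutant kainate arrays. The control kainate arrays thus lay above every mutant kainate array. The Crem interaction was -0.43 (SE 0.14, adjusted p = 0.939 in limma), and -0.38 (SE 0.13) without the third control kainate array. The dimmer Crem probe set, 100533_s_at, had an interaction of -0.18 (SE 0.15).

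Among the genes with a smaller mutant response, Atf3, Gadd45b, Nfil3, Ppp1r15a, Gpr19 and Siah2 had a larger genotype difference after kainate than after saline. Atf3 encodes a stress-induced transcription factor of the CREB and ATF family. Its probe set 104155_f_at read 4.49, 4.48 and 4.21 in control saline arrays and 9.58, 9.22 and 8.22 in control kainate arrays. In mutants it read 4.53, 4.40 and 4.39 after saline and 7.50, 7.35 and 6.92 after kainate. The saline arrays overlapped, and every control kainate array lay above every mutant kainate array. Atf3 rose 24.5-fold in controls and 7.04-fold in mutants, and the interaction was -1.80 (SE 0.41, adjusted p = 0.939 in limma). Without the third control kainate array it was -2.19 (SE 0.24, adjusted p = 0.0248). The second probe set, 104156_r_at, lay at the 49.8 percentile of levels, just below the median. It rose 3.87-fold in controls and stood at 1.22-fold in mutants, where the response did not pass. Its interaction was -1.67 (SE 0.24, adjusted p = 0.333), and -1.83 (SE 0.20, adjusted p = 0.0248) without that array. The other Atf3 probe set, 161645_r_at, lay at the 0.531 percentile of levels and had an interaction of -0.03 (SE 0.10).

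Gadd45b encodes a growth-arrest and DNA-damage-inducible protein linked to activity-dependent DNA demethylation in neurons. Its probe set 102779_at read 5.93, 5.90 and 5.84 in control saline arrays and 8.68, 8.14 and 7.81 in control kainate arrays. In mutants it read 5.82, 5.75 and 5.74 after saline and 6.75, 6.60 and 6.54 after kainate. The kainate arrays of the genotypes were more than 1 log2 unit apart at their nearest. Gadd45b rose 4.98-fold in controls, and its mutant response of 1.81-fold did not pass (adjusted p = 0.113 in limma). The interaction was -1.46 (SE 0.24, adjusted p = 0.333), and -1.66 (SE 0.18, adjusted p = 0.0248) without the third control kainate array. A second Gadd45b probe set, 161666_f_at, gave -1.73 (SE 0.35, adjusted p = 0.939). The related Gadd45g, of the same protein family, had responses of 32.0-fold in controls and 23.5-fold in mutants, with saline arrays that ran from 3.26 to 5.98 and an interaction of -0.44 with a 95% interval from -2.54 to 1.65.

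Nfil3 encodes a basic leucine zipper repressor of D-box genes. It read 4.76, 4.53 and 4.62 in control saline arrays and 7.52, 7.25 and 6.72 in control kainate arrays, against 4.31, 4.59 and 4.60 and then 5.99, 5.67 and 4.97 in mutants. All control kainate arrays lay above all mutant kainate arrays. It rose 5.75-fold in controls and stood at 2.06-fold in mutants, and the interaction was -1.48 (SE 0.36, adjusted p = 0.939 in limma), and -1.70 (SE 0.34, adjusted p = 0.822) without the third control kainate array. The dimmer Nfil3 probe set, 101805_f_at, stood at 1.14-fold in controls and 1.01-fold in mutants, with an interaction of -0.17 (SE 0.10). Ppp1r15a, also called Gadd34, encodes the phosphatase subunit that reverses phosphorylation of eIF2 alpha during stress. It read 6.06, 5.29 and 4.79 in control kainate arrays against 4.36, 4.76 and 3.89 in mutant kainate arrays, from saline means of 2.95 and 3.25. Its lowest control kainate array, the third, stood just above its highest mutant kainate array. This probe set lay at the 45.9 percentile of levels, below the median. Ppp1r15a rose 5.39-fold in controls, its mutant response was 2.13-fold, and the interaction was -1.34 (SE 0.45, adjusted p = 0.939).

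Gpr19 and Siah2 had kainate levels above saline levels in controls and no such rise in the mutant means. Gpr19 encodes an orphan G protein-coupled receptor. It read 7.06, 7.06 and 6.54 in control kainate arrays, from 6.11, 5.97 and 5.98 after saline. In mutants it read 6.03, 5.99 and 5.99 after saline and 6.01, 6.24 and 5.98 after kainate. The mutant saline and kainate arrays overlapped, whereas the control ones did not. Gpr19 rose 1.82-fold in controls (adjusted p = 0.0234 in limma), its mutant ratio was 1.05, and the interaction was -0.80 (SE 0.19, adjusted p = 0.939). Without the third control kainate array the interaction was -0.97 (SE 0.11, adjusted p = 0.0248). Siah2 encodes an E3 ubiquitin ligase of the hypoxia pathway. It read 8.00, 7.58 and 6.82 in control kainate arrays against 6.30, 5.89 and 5.86 in mutant kainate arrays, from saline means of 6.61 and 6.34. The saline arrays of the genotypes did not overlap either, with the mutants lower. Its control response of 1.81-fold did not pass (adjusted p = 0.394 in limma). Its interaction was -1.19 (SE 0.34, adjusted p = 0.939), and -1.51 (SE 0.20, adjusted p = 0.0920) without that array. The probe set with no gene name, 102102_at, lay at the 46.0 percentile of levels, below the median. It had means of 3.80, 4.62, 3.76 and 3.74 in control saline, control kainate, mutant saline and mutant kainate arrays. Its interaction was -0.84 (SE 0.14, adjusted p = 0.333), and -0.94 (SE 0.09, adjusted p = 0.0248) without that array.

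**Figure D2:**
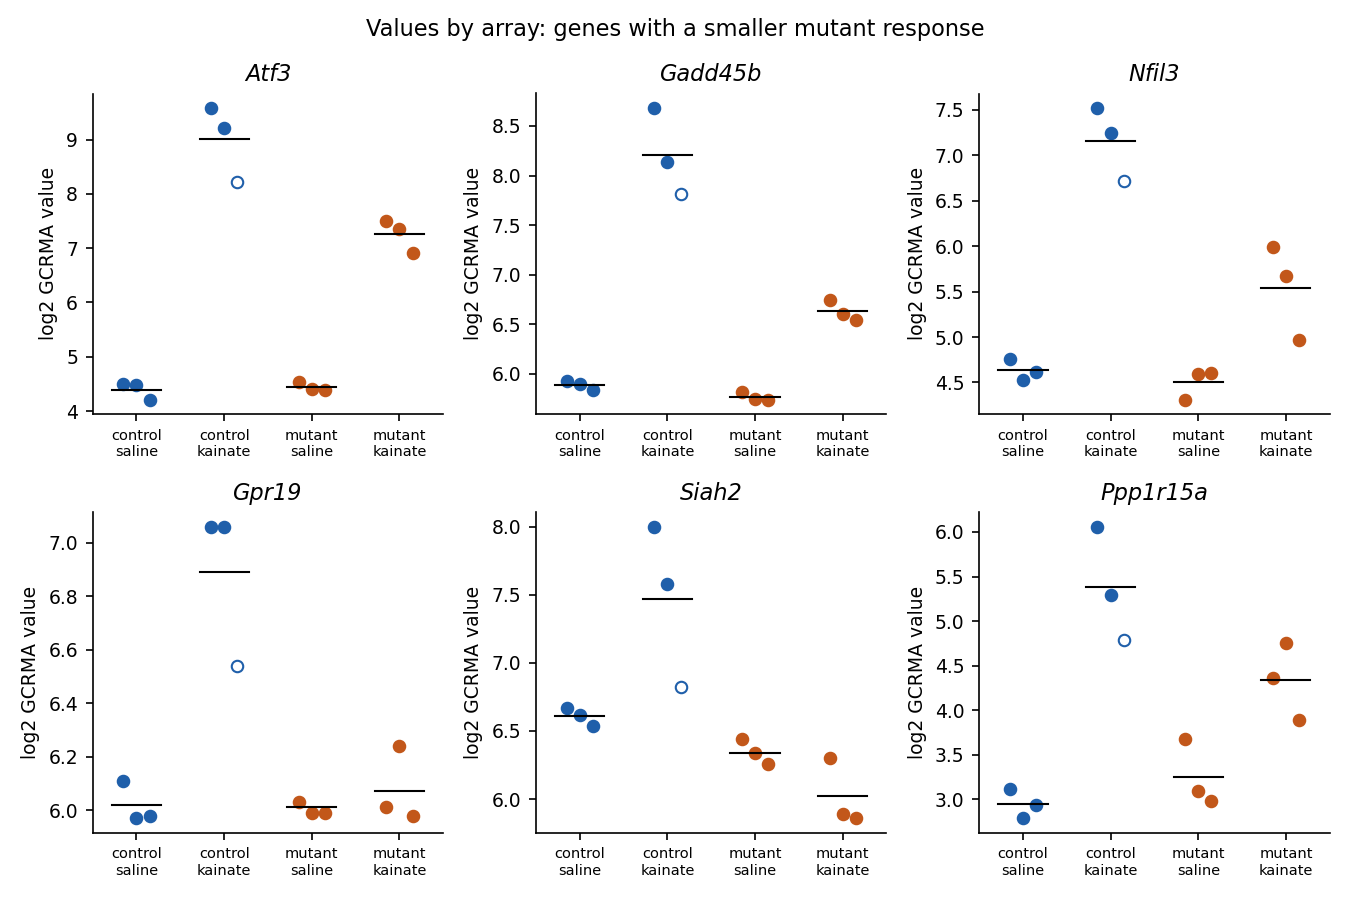
Log2 values of every array are shown for genes with a smaller kainate response in the mutants, grouped by genotype and treatment, with bars at the mean of 3 arrays and an open circle for the third control kainate array. The saline points of the genotypes lie close together, though without overlap for Gadd45b and Siah2. For Atf3, Gadd45b, Nfil3, Siah2 and Gpr19 every control kainate point lies above every mutant kainate point.

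Smaller differences of the same shape were seen for Slc16a1, a lactate and monocarboxylate transporter. It read 5.90, 5.78 and 5.31 in control kainate arrays and 4.92, 4.70 and 5.05 in mutant kainate arrays, with an interaction of -0.65 (SE 0.22). Pacrgl, a gene related to the parkin co-regulated gene, read 5.62, 6.02 and 5.79 against 5.11, 5.09 and 5.14, with an interaction of -0.60 (SE 0.15). The kainate arrays of the genotypes did not overlap for either gene, and neither interaction passed (adjusted p = 0.939 in limma for both). Pacrgl's other probe set, 104446_f_at, gave -0.17 (SE 0.11). Of the other genes chosen for a small unadjusted p in this direction, Surf6 had an interaction of -0.73 (SE 0.28), Ndufaf1 of -0.36 (SE 0.13) and Rassf1 of -0.34 (SE 0.13). The brighter probe set of Ndufaf1, 100892_at, had the opposite sign at 0.26 (SE 0.38).

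Promoter sequence is shown so that the cyclic AMP response element can be seen where its letters occur. It covers some genes with smaller mutant responses, some with saline-level differences, and Dusp1, whose responses were nearly alike. The sequences are RefSeq's on GRCm38.p6, read on the gene's strand from the table's windows of 250 bases before to 50 bases after a transcript start. Capitals mark TGACGTCA or, where only that is present, TGACG or its reverse complement CGTCA. The stretches were chosen after the matches were known, and each holds a match. None is shown for genes with higher kainate levels in the mutants, among which, for example, Dnajb9 held TGACG and C1d held CGTCA. Gadd45b, Siah2 and Slc16a1 had no match or no window. For Nfil3 and Nr4a1 the gene start did not match the window. Atf3 (chr1:191183334-191183433, minus strand), Nfil3 (chr13:52981081-52981110, minus strand), Ppp1r15a (chr7:45526269-45526368, minus strand) and Pacrgl (chr5:48372292-48372391, plus strand) had smaller mutant responses.
Atf3: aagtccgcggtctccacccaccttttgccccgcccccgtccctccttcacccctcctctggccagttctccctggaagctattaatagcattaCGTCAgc
Nfil3: gcggccgccgccCGTCAcggcggggctggc
Ppp1r15a: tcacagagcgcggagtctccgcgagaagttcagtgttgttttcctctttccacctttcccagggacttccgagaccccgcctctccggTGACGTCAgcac
Pacrgl: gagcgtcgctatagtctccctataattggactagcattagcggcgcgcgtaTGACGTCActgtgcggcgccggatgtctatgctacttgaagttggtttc
Btg2 (chr1:134079256-134079355, minus strand) had a smaller mutant response, with genotype differences that did not pass in either treatment. Fos (chr12:85473790-85473889, plus strand) and Nr4a1 (chr15:101266764-101266793, plus strand) differed between genotypes at saline level, as described next, and Dusp1 (chr17:26508573-26508672, minus strand) responded nearly alike in both genotypes.
Btg2: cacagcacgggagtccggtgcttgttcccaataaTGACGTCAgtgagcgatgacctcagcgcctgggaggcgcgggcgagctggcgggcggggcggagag
Fos: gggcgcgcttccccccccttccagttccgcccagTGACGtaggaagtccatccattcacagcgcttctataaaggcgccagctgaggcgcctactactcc
Nr4a1: gccgggccgtgtgCGTCAgtggcgcccccg
Dusp1: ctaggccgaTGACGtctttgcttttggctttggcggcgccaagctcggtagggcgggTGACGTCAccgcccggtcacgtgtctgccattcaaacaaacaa

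The full palindrome thus stood in the window of Ppp1r15a, whose mutant response was smaller, and in that of Dusp1, whose responses were nearly equal. Counting both strands, TGACGTCA was in 1.79% of 32851 promoter windows and TGACG or CGTCA, which lie inside it, in 20.8%. Of 6576 measured genes with a window, 3.16% held the palindrome and 33.1% the shorter core. Among the 15 genes named for a smaller mutant response, 12 had a window, of which 2 held the palindrome (Btg2 and Pacrgl) and 7 the core. Among the 15 named for a larger one, 14 had a window, of which 0 held the palindrome and 5 the core. Of 23 listed genes raised by kainate by at least 1 log2 unit, 4 held the palindrome and 18 the core. The lists they came from include known CREB targets, so a high share was partly built in. The shares over all measured genes are thus no reference for it. A match is a run of letters in one window and was not tested as a binding site.

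A different pattern was seen in Fos, Nr4a1 and Ier2, whose saline levels differed by genotype. Fos encodes the AP-1 subunit most used as a marker of neuronal activation. It read 8.05, 8.40 and 8.37 in control saline arrays and 7.17, 7.29 and 6.89 in mutant saline arrays, with no overlap. After kainate it read 13.04, 13.13 and 12.98 in controls and 13.19, 13.01 and 12.89 in mutants, with overlap. Fos rose 27.3-fold in controls and 60.4-fold in mutants, and the interaction was 1.14 (SE 0.19, adjusted p = 0.333 in limma), and 1.11 (SE 0.20, adjusted p = 0.506) without the third control kainate array. The mutant minus control difference was -1.16 (SE 0.13) under saline, where it passed (adjusted p = 0.00809), and -0.02 (SE 0.13) under kainate. These genotype differences use the same arrays as the interaction, and they passed for 0.137% of all probe sets under saline and 0.354% under kainate.

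Nr4a1 encodes an orphan nuclear receptor induced by activity. It read 7.92, 7.69 and 7.58 in control saline arrays and 6.77, 6.09 and 6.34 in mutant saline arrays, then 11.16, 11.06 and 10.95 against 10.49, 10.65 and 10.32 after kainate. The mutants were lower in both treatments with no overlap, by -1.33 (SE 0.16, adjusted p = 0.0126 in limma) under saline and -0.57 (SE 0.16, adjusted p = 0.428) under kainate. The interaction was therefore positive, at 0.76 (SE 0.23, adjusted p = 0.939), with a rise of 10.0-fold in controls and 17.0-fold in mutants.

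Ier2, an immediate early gene for a nuclear protein, and Btg2, an antiproliferative gene of the BTG and TOB family, had higher saline values in the mutants. Ier2 read 4.23, 3.96 and 4.65 in control saline arrays and 5.65, 5.69 and 5.45 in mutant saline arrays, then 10.94, 10.78 and 10.65 against 11.29, 10.78 and 11.00 after kainate. Its saline arrays did not overlap and its kainate arrays did. It rose 91.2-fold in controls and 43.1-fold in mutants, with an interaction of -1.08 (SE 0.25, adjusted p = 0.939 in limma). Its saline difference was 1.32 (SE 0.18, adjusted p = 0.0205). Btg2 read 4.80, 5.03 and 5.06 in control saline arrays and 5.26, 5.42 and 5.34 in mutant saline arrays, then 10.30, 10.40 and 10.26 against 9.83, 10.23 and 9.87 after kainate. Neither treatment's arrays overlapped, and the mutant minus control difference was 0.37 (SE 0.12, adjusted p = 0.985) after saline and -0.34 (SE 0.12, adjusted p = 0.530) after kainate, so neither passed. Btg2 rose 40.9-fold in controls and 24.9-fold in mutants, and the interaction was -0.72 (SE 0.17, adjusted p = 0.939).

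Larger kainate levels in the mutants were seen for Rasl11b, Cebpd and Dnajb9. Rasl11b encodes a small GTPase of the Ras family. It read 9.27, 9.23 and 9.36 in control saline arrays and 9.96, 9.94 and 9.88 in control kainate arrays, against 9.21, 8.93 and 9.08 and then 10.41, 10.49 and 10.36 in mutants. All mutant kainate arrays lay above all control kainate arrays, and all mutant saline arrays below all control saline arrays. It rose 1.56-fold in controls and 2.55-fold in mutants, with an interaction of 0.71 (SE 0.12, adjusted p = 0.333 in limma) and of 0.69 (SE 0.11, adjusted p = 0.329) without the third control kainate array.

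Cebpd, a C/EBP family transcription factor of the acute phase response, read 8.64, 8.73 and 8.66 in control kainate arrays and 9.42, 9.16 and 9.43 in mutant kainate arrays, from saline means of 8.17 and 8.16. It rose 2.27-fold in mutants (adjusted p = 0.00242 in limma), its control response of 1.42-fold did not pass, and the interaction was 0.67 (SE 0.19, adjusted p = 0.939). Dnajb9 encodes an endoplasmic reticulum co-chaperone of the unfolded protein response. It read 8.68, 9.28 and 8.67 in control kainate arrays and 9.67, 9.91 and 9.52 in mutant kainate arrays, from saline means of 8.52 and 8.44, and the kainate arrays did not overlap. Its interaction was 0.91 (SE 0.27, adjusted p = 0.939) in this probe set. In its second probe set, 96679_at, the interaction was 1.26 (SE 0.45), and the third control kainate array was the lowest of all 12 arrays at 5.62. Sertad1, a cell cycle and transcription co-regulator, read 6.87, 6.82 and 6.40 in control kainate arrays against 7.27, 7.38 and 7.33 in mutant ones, with an interaction of 0.49 (SE 0.18).

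For the other genes named for a larger mutant response the averaged kainate effect did not pass. C1d had an interaction of 0.48 (SE 0.15), Blnk of 0.48 (SE 0.17), Dpp7 of 0.49 (SE 0.18), Ssbp2 of 0.42 (SE 0.15) and Hexa, a lysosomal hexosaminidase subunit, of 0.36 (SE 0.13). Thumpd1 had 1.34 (SE 0.41), with a mutant minus control difference of -0.67 under saline and 0.67 under kainate. Scn1a, a sodium channel subunit gene, had 0.44 (SE 0.16), and Grin2c, which encodes an NMDA receptor subunit, had 0.41 (SE 0.15). For those last genes and for C330007P06Rik (0.42, SE 0.15) the saline difference was the larger one, as it was, with the opposite sign of interaction, for Ldb1 (-0.42, SE 0.13) and the interferon-induced Ifit2 (-0.63, SE 0.23). Other probe sets gave 0.27 (SE 0.25) for Scn1a (94201_at) and 0.14 (SE 0.31) for Blnk (100771_at). Dimmer ones had the opposite sign for Hexa (162488_at, -0.15, SE 0.17) and C330007P06Rik (103696_r_at, -0.17, SE 0.18, and 161963_f_at, -0.13, SE 0.16).

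**Figure D3:**
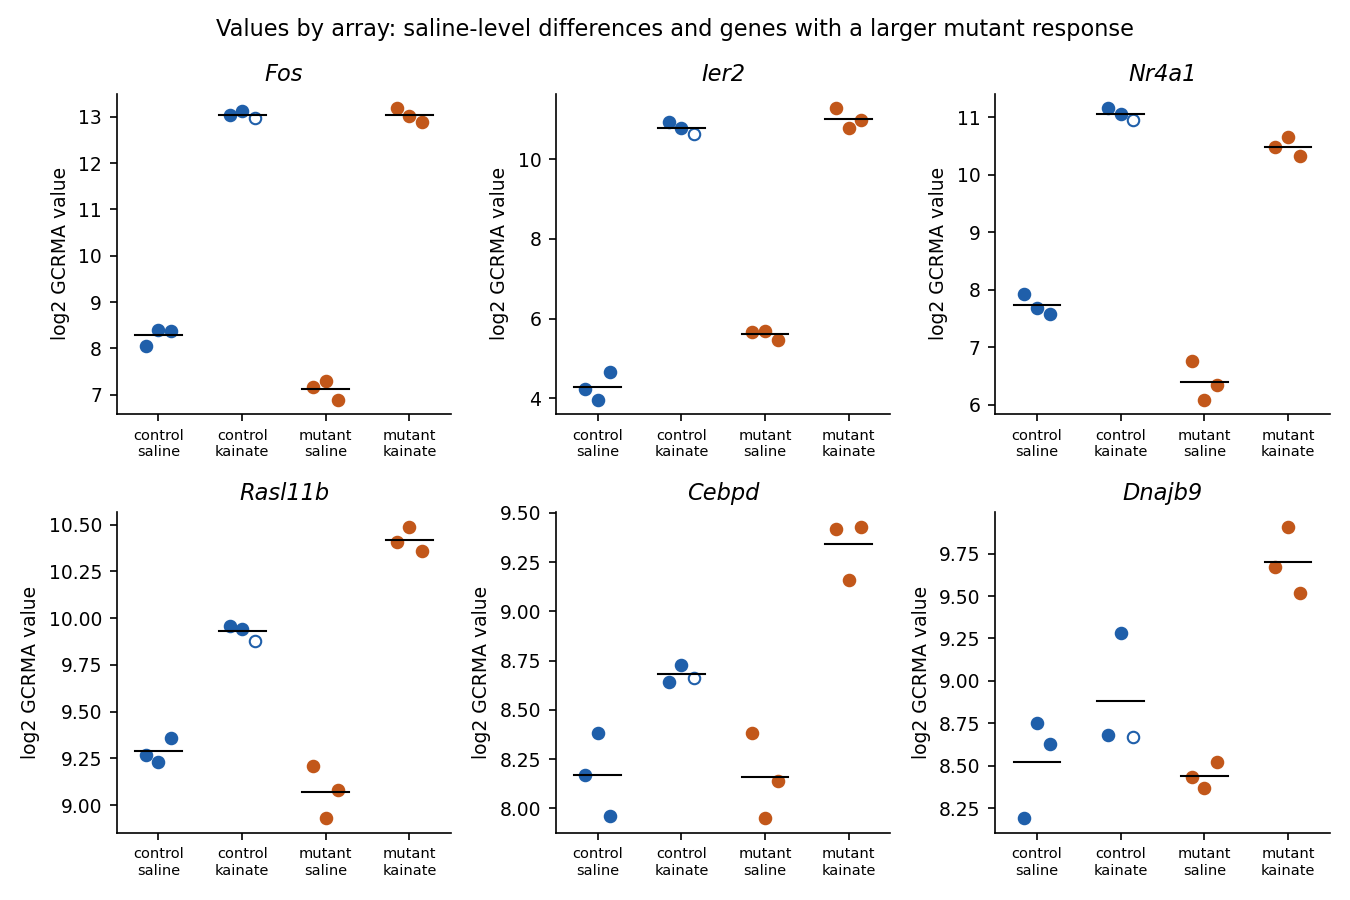
Log2 values of every array are shown for genes whose saline levels differed by genotype and for genes with a larger kainate response in the mutants, with bars at the mean of 3 arrays. The open circle is the third control kainate array. In the Fos panel the genotypes separate after saline and meet after kainate, whereas in the Rasl11b and Dnajb9 panels the mutant kainate points lie above all control kainate points.

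An interaction is the genotype difference under kainate minus the genotype difference under saline, so each named gene can be placed by which of these was larger. Among the 15 genes with a smaller mutant response, the kainate difference was the larger in 11 and the saline difference in 4. Among the 15 with a larger mutant response the counts were 9 and 5, with 1 tie at 2 decimals. The kainate difference was the larger one for 77.9% of all probe sets, so these counts are near the background. The kainate arrays of the genotypes did not overlap for 11 of the 15 and 10 of the 15, against 8.99% of all probe sets. Their saline arrays did not overlap for 6 and 8 of the 15, against 7.08% of all. The genes were chosen by this same contrast, and nothing is read from those counts. Hexa and Ifit2 were the named genes with opposite responses and no overlap between saline and kainate arrays in either genotype, as seen in 0.0644% of all probe sets.

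**Figure D4:**
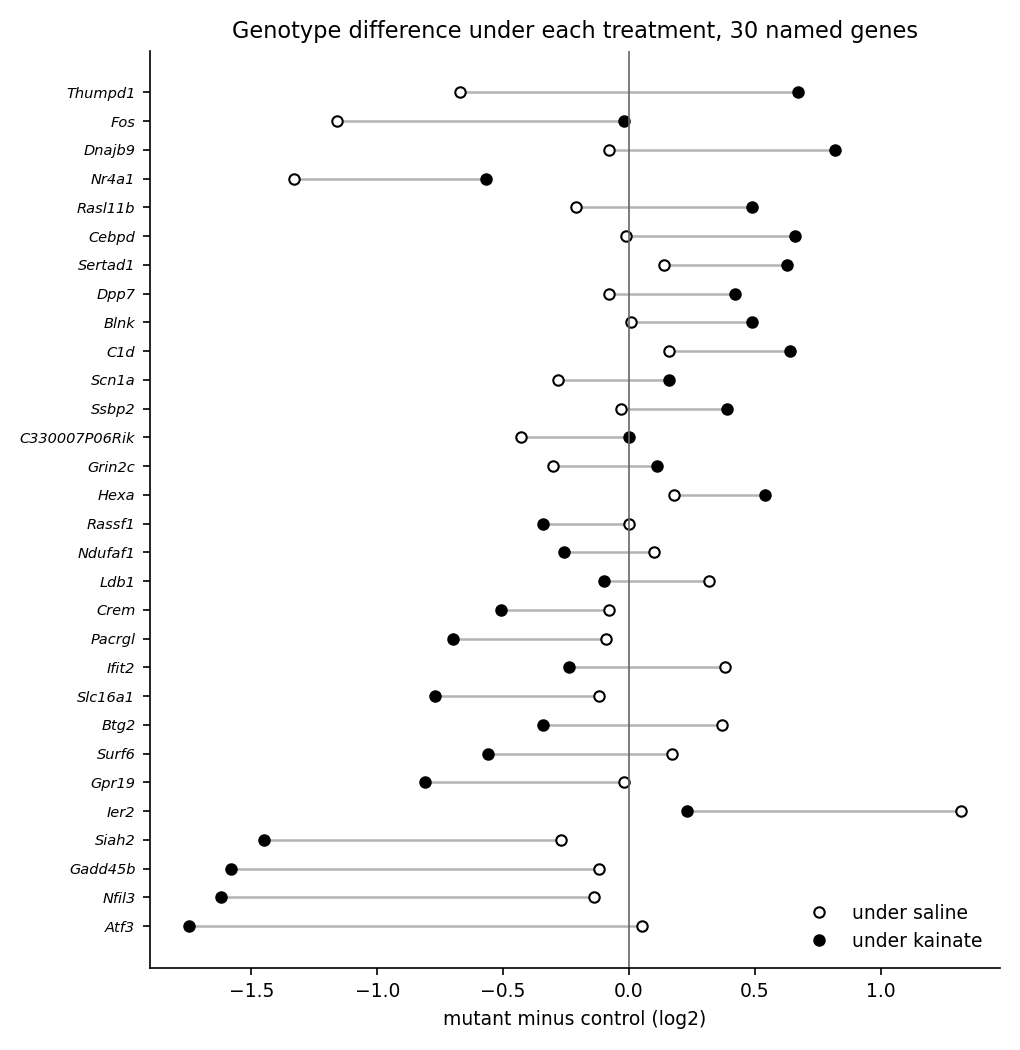
For each of the 30 genes named by their interaction p, an open circle gives the log2 mutant minus control difference under saline and a filled circle that under kainate, with genes ordered by their interaction. Atf3, Gadd45b, Nfil3 and Siah2 have a filled circle far below 0 and an open circle near it, while Fos, Nr4a1 and Ier2 have the open circle farther from 0.

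Several of the strongest kainate responses had interactions close to 0, with intervals that bound the difference. Dusp1, a phosphatase that shuts off MAP kinases, read 10.98, 11.20 and 11.10 in control kainate arrays and 11.02, 11.40 and 11.15 in mutant ones, from saline means of 7.59 and 7.54. It rose 11.3-fold in controls and 12.5-fold in mutants, with an interaction of 0.14 and a 95% interval from -0.18 to 0.47. Egr2, a zinc finger transcription factor, rose 26.9-fold and 27.1-fold, with an interaction of 0.01 (95% interval -0.51 to 0.53). For Egr1, of the same family, the folds were 3.10 and 3.06 and the interaction was -0.02 (95% interval -0.43 to 0.39). Ccn1, a matricellular protein gene, rose 6.85-fold and 6.58-fold, with an interaction of -0.06 (95% interval -0.38 to 0.27). The arrays of the genotypes overlapped in both treatments for each of these 4 genes. Dusp6, a phosphatase for ERK, had an interaction of -0.04 (95% interval -0.46 to 0.38) and Fosb, a Fos paralogue, of -0.17 (95% interval -1.39 to 1.05). These intervals allow differences of the stated size, and equal responses were not shown.

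Other induced genes lay between these cases. Rgs2, a regulator of G protein signalling, rose 9.37-fold in controls and 5.93-fold in mutants, with an interaction of -0.66 (SE 0.32). Errfi1, a feedback inhibitor of EGF receptors, rose by 2.17 log2 units in controls and 1.89 in mutants, with an interaction of -0.28 (SE 0.15) and, without the third control kainate array, -0.38 (SE 0.11). Both had kainate arrays that did not overlap in these probe sets. In the other Errfi1 probe set, 93974_at, the kainate arrays overlapped and the interaction was -0.30 (SE 0.56). Junb, an AP-1 subunit, had -0.20 (SE 0.24), and 0.07 (SE 0.38) in its other probe set, 102362_i_at. Tob1, of the family of Btg2, had -0.18 (SE 0.20). On the positive side, Ptgs2, the inducible cyclooxygenase, had 0.33 (SE 0.43), Cebpb, a C/EBP transcription factor, 0.63 (SE 0.30), Gem, a small GTPase, 0.53 (SE 0.31), Klf4, a zinc finger factor, 0.55 (SE 0.43), Zfp36, an mRNA decay factor, 0.21 (SE 0.26), Ier3 0.25 (SE 0.36), Zfp36l2 0.20 (SE 0.33) and Dnajb1, a heat shock co-chaperone, 0.02 (SE 0.35). None of these interactions passed. Map2, a dendritic microtubule protein gene, was the only listed gene with an averaged kainate response of at least 1 log2 unit downward. Its response was -1.99 in controls and -2.13 in mutants, and its interaction was -0.13 (SE 0.66).

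The third control kainate array moved some of these values and not others. Nfkbiz, an inducible regulator of NF-kappa B, read 6.68, 7.26 and 4.48 in control kainate arrays and 6.98, 7.69 and 7.37 in mutant ones. Its interaction was 1.36 (SE 0.77) with all arrays and 0.53 (SE 0.28) without the third control kainate array. Ier3 went from 0.25 to -0.11, Zfp36l2 from 0.20 to -0.11, Dnajb1 from 0.02 to -0.20 and Zfp36 from 0.21 to 0.01 in the same step, and Klf4 from 0.55 to 0.21. Fos, at 1.14 and 1.11, and Rasl11b, at 0.71 and 0.69, moved by less than their standard errors. Without that array the interaction was -1.15 (SE 0.27) for Ier2, -0.75 (SE 0.17) for Btg2, 0.71 (SE 0.25) for Nr4a1, 0.66 (SE 0.21) for Cebpd and 0.80 (SE 0.28) for Dnajb9. It was -1.64 (SE 0.42) for Ppp1r15a, -0.83 (SE 0.16) for Slc16a1 and -0.61 (SE 0.15) for Pacrgl. None of these passed. For Atf3, Gadd45b, Nfil3, Siah2, Ppp1r15a, Gpr19 and Slc16a1 that array was the lowest of the 3 control kainate arrays, and the interaction was farther from 0 without it. Of the 15 genes named for a smaller mutant response, 9 moved farther from 0 without that array. Of the 15 named for a larger one, 1 did. Sertad1 went from 0.49 to 0.34, Hexa from 0.36 to 0.27 and Surf6 from -0.73 to -0.56. Choosing the 15 by the same rule without that array kept 10 of the former and 9 of the latter.

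**Figure D5:**
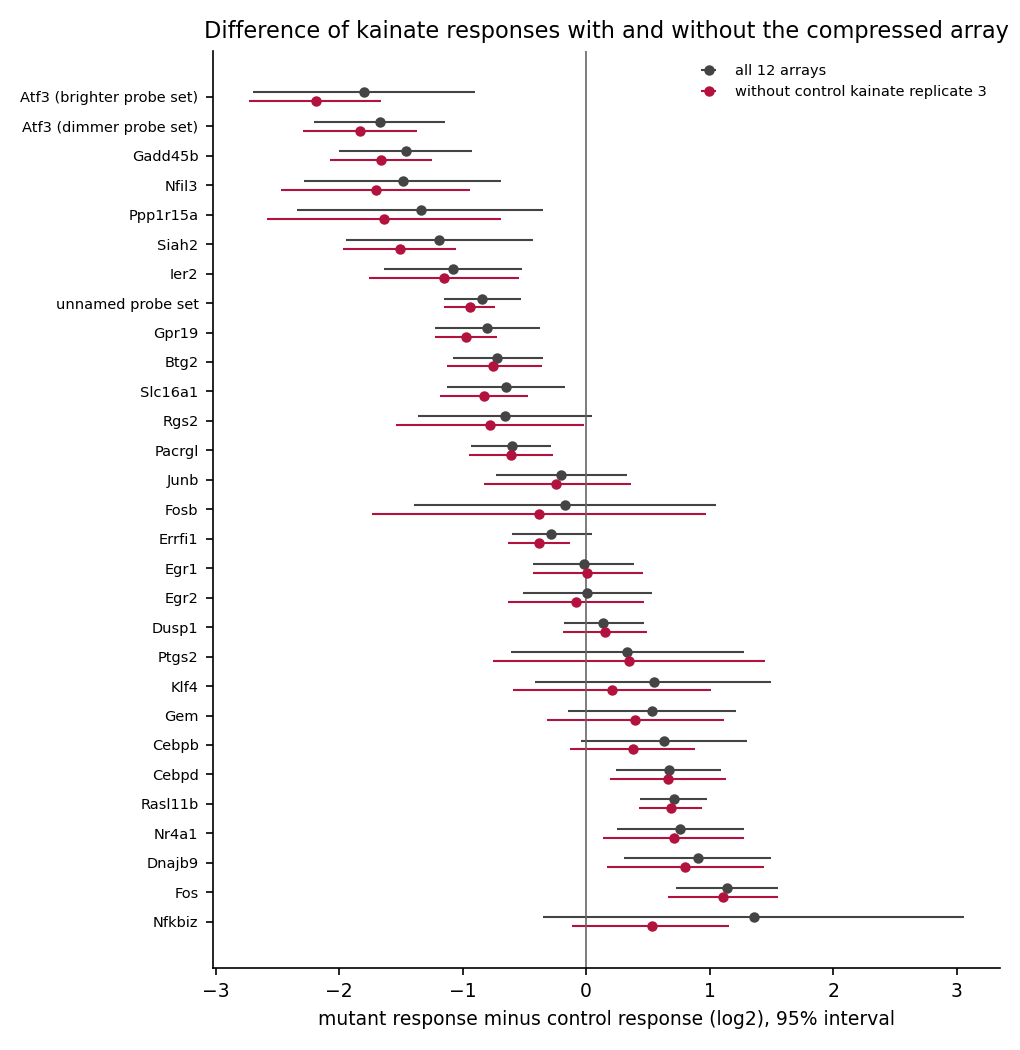
The interaction of selected named genes is shown in log2 units with its 95% interval, computed with all 12 arrays and without the third control kainate array. Atf3, Gadd45b, Gpr19 and Siah2 move farther below 0 with narrower intervals when that array is left out, and Nfkbiz moves toward 0.

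Pathway lists place these genes among their functional relatives, each gene counted once by its brightest probe set. The lists share members and were drawn up with results of these data known. No member of any list passed with all arrays. Without the third control kainate array 5 of all probe sets passed (0.0403%), and list members among them were Atf3 (immediate early factors and CREB targets), Gadd45b (effector genes, CREB targets and growth arrest genes) and Gpr19 (effector genes and CREB targets). Over all probe sets 62.6% of interactions were below 0 with all arrays and 37.8% without the third control kainate array, and the signs within a list are to be read against these shares. Of 28 measured immediate early transcription factors, 18 were raised by kainate averaged over genotypes, against 0.531% of all probe sets. Their interactions were positive for 13 and negative for 15, with a median of -0.03 against -0.05 for all probe sets, and without the third control kainate array the medians were -0.04 and 0.01. Of 34 activity-regulated effector genes, 13 were raised, and 13 interactions were positive and 21 negative, with a median of -0.04, and -0.05 without that array. Of 40 measured genes known as CREB targets, 17 were raised, and 11 interactions were positive and 29 negative, with a median of -0.14. Without that array 14 were positive and 26 negative, with a median of -0.08. Crem (-0.43), itself lost in the mutants, is counted in this list and among the immediate early factors. It is also counted in the CREB and ATF family below and among the 15 genes named for a smaller mutant response. Nothing is read from the signs of the CREB target list.

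The remaining lists moved less or moved with the third control kainate array. Of 9 measured MAP kinase and ErbB feedback inhibitors, 5 were raised, and 6 interactions were positive and 3 negative, with a median of 0.14 that was 0.01 without that array. Heat shock and unfolded protein response genes had 17 positive and 4 negative of 21, with a median of 0.18 that was 0.04 without it. Glutamate, GABA and kainate receptor genes had 5 positive and 14 negative of 19, with a median of -0.12 that was -0.02 without it. Growth arrest and apoptosis genes had 7 positive and 9 negative of 16, with a median of -0.07 that was 0.00 without it. Clock and D-box factors had 8 positive and 7 negative of 15, with a median of 0.06, and the CREB and ATF family with its coactivators and protein kinase A had 10 positive and 7 negative of 17, with a median of 0.05.

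Markers of hippocampal cell types were present, and 0 of the 4 dentate granule, 2 CA1 and 4 CA3 or CA2 neuron markers measured lay in the dimmest class of levels. Summed over 9 measured microglial markers, the log2 level was 53.6 to 54.0 in control saline, 54.2 to 56.6 in control kainate, 60.2 to 61.0 in mutant saline and 60.4 to 62.7 in mutant kainate arrays. The mutants were thus higher in both treatments, and the microglial interactions were positive for 5 and negative for 4, with a median of 0.07. The 6 astrocyte markers summed to 58.1 to 58.5, 57.8 to 59.4, 60.3 to 61.3 and 59.6 to 62.0 in the groups in the same order, again higher in mutants with no overlap, and had a median interaction of -0.03. The 2 CA1 markers summed to 14.5 to 15.5, 14.9 to 15.8, 12.9 to 13.7 and 12.9 to 14.0, lower in mutants with no overlap, and had a median interaction of -0.01. In bulk tissue fewer cells of a type and less RNA per cell cannot be told apart. The 3 measured choroid plexus markers all had positive interactions, with a median of 0.90, or 0.73 without the third control kainate array. Their summed level ran from 27.0 to 27.7, 23.6 to 27.2, 24.1 to 28.7 and 25.4 to 28.1 in the groups in the same order. The part of these cell types in the interactions above was not tested.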

How the data were processed

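Total RNA from mouse hippocampus, pooled from 3 animals an array, was hybridised to 12 Affymetrix arrays. The authors deposited log2 expression values made with GCRMA in R 2.4.1, per the submitters' processing notes; the GCRMA version is not given in the sources used here. Values ran from -0.78 to 14.35 and were used as deposited. GCRMA pulls dim probe sets toward a common low value, which shrinks their differences, and arrays have no read depth, so precision rests on 3 arrays a group. Of 12422 probe sets, 10833 had 1 gene symbol in the platform annotation, updated through RefSeq GRCm38.p6, 396 several and 1193 none.

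Groups came from the sample titles. limma 3.58.1 in R 4.3.3 fitted 1 mean per group across all probe sets, with empirical Bayes moderation and Benjamini-Hochberg adjustment over all 12422, at a threshold of 0.05. The procedure was tested on simulated data. Differences are log2, and folds are 2 to that power. The titles call the replicates biological.

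Named genes were the 15 with the smallest interaction p in each direction among single-symbol probe sets above the median level, every probe set passing without the third control kainate array, listed genes with an averaged kainate change of at least 1 log2 unit past the threshold, and all Creb1 and Crem probe sets. The members and lists were chosen with earlier results of these data known. Alternatives were each array left out, a replicate block, a batch term for replicate 1, replicates 2 and 3 alone, other scalings, filters, fits and array weights.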

Additional observations from a re-analysis of the deposited data

Results flagged for a closer look

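The genotypes' kainate responses differed past an adjusted p of 0.05 in limma for 5 probe sets once the third control kainate array was left out, and for none with all arrays. The differences were -2.19 and -1.83 for the Atf3 probe sets 104155_f_at and 104156_r_at, -1.66 for Gadd45b, -0.97 for Gpr19 and -0.94 for the unnamed probe set 102102_at, each with an adjusted p of 0.0248. For Hexa and Ifit2 the kainate and saline arrays did not overlap within either genotype, and the responses had opposite signs. Hexa had -0.28 in controls (adjusted p = 0.494 in limma) and 0.08 in mutants (adjusted p = 1.0), and Ifit2 had 0.42 (adjusted p = 0.592) and -0.21 (adjusted p = 1.0), so none of these responses passed. Their differences were 0.36 and -0.63 with all arrays (adjusted p = 0.939 in limma). Without the third control kainate array they were 0.27 and -0.43, and they passed in neither fit. Such opposite values were seen for 8 of all probe sets (0.0644%).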

How the results depend on the processing

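Of 58 named probe sets, 43 kept the sign of their interaction in every alternative run for them, Atf3, Gadd45b, Nfil3, Siah2, Gpr19, Fos and Rasl11b among them, and 7 passed in at least 1. There were 23 alternatives, 12 with 1 array left out and 11 others; 50 of the 58 probe sets had a value in all of them, 38 of the 43 among these, and the other 8 in 21 or 22, being below the median level or not the probe set kept for their gene. A sign was counted as turned only where the value was not 0 at 2 decimals. The median interaction, -0.05 for all probe sets, was 0.08 for the 6211 probe sets above the median level. It lay between -0.09 and 0.03 in the other alternatives.

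With 1 array left out, the count of interactions past the threshold ran from 0 to 5, the 5 without the third control kainate array. The count for the averaged kainate effect ran from 52 to 284, for controls from 27 to 56 and for mutants from 26 to 51. Interactions past the threshold numbered 6 with a batch term for replicate 1 and the third control kainate array left out (Siah2 added), 1 with median centring and interquartile scaling (Gadd45b) and 8 with array weights estimated gene by gene. limma's default estimate of those weights did not converge, gave 1204, and was set aside for the gene-by-gene one after this was seen. The averaged count was 333 with the batch term, 572 with that array also left out, 778 with replicates 2 and 3 alone, 62 with median centring and 2036 with array weights. The control count was 79, 146 and 380 with the batch term and that array left out, replicates 2 and 3 alone, and array weights. The mutant count was 64 with the batch term, and 173, 94 and 1619 in those settings.

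With the replicate block the counts were 0 for the interaction (201 unadjusted), 245 averaged, 48 in controls and 44 in mutants. Deviations of same-numbered arrays from their group means correlated at 0.368 to 0.848 for number 1, 0.302 to 0.583 for number 2 and -0.011 to 0.621 for number 3, against -0.722 to 0.568 for different numbers. The 2 same-numbered pairs under 0.1 both held the third control kainate array. As not every pair was above 0.1 and the labels name no shared batch, the block was kept as an alternative; whether the numbers mark a shared batch is not given in the sources used here. Of 12 arrays, 11 correlated best with an array of the same number, a hint from the data and not from the design.

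Signs turned for genes near 0, and the cause was not tested. Leaving out 1 array, Fosb ran from -0.54 to 0.24, Egr1 from -0.13 to 0.10, Egr2 from -0.15 to 0.17, Ier3 from -0.11 to 0.51, Ccn1 from -0.13 to 0.01, Gadd45g from -1.23 to 0.23, Dusp6 from -0.16 to 0.04, Zfp36l2 from -0.11 to 0.40, Dnajb1 from -0.20 to 0.28, Map2 from -0.69 to 0.29 and Creb1 102671_at from -0.18 to 0.01. With array weights, values were 0.09 for Egr1, -0.23 for Egr2, -0.20 for Ier3, -0.31 for Zfp36l2, -0.52 for Dnajb1, 0.02 for Crem 100533_s_at, and 0.04 and 0.02 for Creb1 102671_at and 102672_g_at. With the batch term and the third control kainate array left out, they were -0.07 for Egr2, -0.07 for Ier3, -0.13 for Zfp36l2, -0.19 for Dnajb1, and 0.02 and 0.01 for those Creb1 probe sets. With replicates 2 and 3 alone, they were 0.07 for Egr1, -0.07 for Egr2, 0.01 for Ccn1 and -0.07 for Dnajb1. Median centring gave 0.06 for Egr1, 0.02 for Ccn1 and 0.04 for Dusp6. With interquartile scaling added, they were -0.38 for Egr2, -0.05 for Ptgs2, -0.26 for Dusp1, -0.18 for Dnajb1 and 0.05 for Creb1 102671_at. Quantile normalization gave -0.03 for Egr2 and -0.07 for Dnajb1, and averaging probe sets per gene -0.03 for Zfp36l2. With 3 pooled arrays a group and a median standard error of 0.188 log2 units, interactions small against their standard error could not be told from 0. The Creb1 and Crem probe sets were also dim or near the median level, which limits what can be said of those genes.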

Other observations

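Nr4a2, an orphan nuclear receptor gene related to Nr4a1, was singled out after its values were seen. Its probe set 92248_at read 6.28, 7.08 and 7.21 in control saline arrays and 8.48, 8.94 and 7.94 in control kainate arrays, against 4.13, 5.19 and 5.47 and then 5.70, 5.47 and 5.52 in mutants. The mutants were lower in both treatments with no overlap, by -1.93 under saline and -2.89 under kainate (SE 0.36 for both). The interaction was -0.96 (SE 0.51, adjusted p = 0.939 in limma), and -1.80 (SE 0.70, adjusted p = 0.939) in the second probe set, 92249_g_at. Its sign is opposite to that of Nr4a1 (0.76), and the difference between these genes was not tested. Bdnf, a neurotrophin gene and known CREB target also singled out afterwards, had responses of 2.03-fold in controls and 1.80-fold in mutants, with an interaction of -0.18 (SE 0.39).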
